A study of Homo sapiens with 14 samples.

Results

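The genes described here are 47 human genes of mitosis and the spindle, out of 58440 genes in the deposited tables. They were chosen from lists of mitotic kinases, cyclins, and kinetochore, cohesion and spindle genes. Their levels in all 7 mixing conditions were known when the list was made, so the levels below describe the genes that the choice picked. All 47 were found by gene symbol, and all passed the filter on low counts. Each had a mean of at least 10 CPM over the pure libraries (CPM is a gene's count per 1000000 counts of all genes, spike-ins left out).

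The study mixed 2 established human cell lines in known proportions and sequenced the polyadenylated RNA. HEK-293T is an adherent embryonic kidney line that carries the SV40 large T antigen, and Jurkat is a T cell leukaemia line that grows in suspension. There were 7 conditions, with 100, 80, 60, 50, 40, 20 and 0% HEK cells and the rest Jurkat cells, each of 1000000 cells and each with 2 libraries. No treatment is named for either line, both were harvested 2 days after passage, and all libraries carried ERCC spike-in RNA. Replication is described as technical, so every p-value below measures the spread between libraries and not between cultures.

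In a cycling cell, CDK1 with its cyclins starts mitosis, and Polo and Aurora kinases build the spindle. Kinetochores then attach the chromosomes to it, and a checkpoint holds the anaphase-promoting complex (APC/C) in check until all are attached. Most of these genes are transcribed late in the cell cycle, in G2 and M phase, through promoters that carry a CHR element (cell cycle genes homology region, bound by the DREAM and MuvB complexes) and CCAAT boxes (bound by NF-Y). In a bulk culture, their summed RNA depends both on how many cells are in those phases and on how much each such cell holds, and these cannot be told apart here.

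The promoters showed what the choice of the list did not use. RefSeq promoter sequences of the GRCh38.p14 assembly, from 250 bases before to 50 bases after the annotated start, were at hand for 41 of the 47 members (none for AURKA, TTK, BIRC5, BUB3, UBE2C and TPX2). The CHR letters TTTGAA, read on both strands, stood in 27 of 41 member promoters (65.9%) and in 15.4% of all 27305 promoters. The CCAAT letters stood in 33 of 41 (80.5%) against 35.7% of all promoters, and both motifs stood together in 23 (56.1%) against 6.08%. Among the 10898 promoters of genes tested for expression, 9.60% held the CHR letters and 37.0% the CCAAT letters. A match is a description of the letters and does not show that a factor binds there. Each motif was searched on its own, so matches of different motifs may share a base at their ends, and no other spelling was searched.

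The promoters of CCNB2, PLK1, DEPDC1 and DEPDC1B are printed to show the arrangement, and that of BUB1 because this gene, described below, lacked the CHR letters. They read 5′ to 3′ on the gene's strand, with TTTGAA (or its reverse complement TTCAAA) and CCAAT (or ATTGG) in capitals. CCNB2 (chr15:59104896-59105195, plus strand) encodes cyclin B2, and PLK1 (chr16:23678639-23678938, plus strand) encodes the Polo-like kinase. DEPDC1 (chr1:68497033-68497332, minus strand) and DEPDC1B (chr5:60700117-60700416, minus strand) encode related proteins with a DEP domain, and BUB1 (chr2:110678014-110678313, minus strand) encodes a checkpoint kinase.
CCNB2: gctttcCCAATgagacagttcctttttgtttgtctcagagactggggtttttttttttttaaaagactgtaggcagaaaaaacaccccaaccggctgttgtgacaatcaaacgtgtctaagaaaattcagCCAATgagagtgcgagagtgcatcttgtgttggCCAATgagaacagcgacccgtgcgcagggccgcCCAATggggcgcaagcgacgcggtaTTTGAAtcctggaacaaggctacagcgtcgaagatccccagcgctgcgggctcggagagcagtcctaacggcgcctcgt
PLK1: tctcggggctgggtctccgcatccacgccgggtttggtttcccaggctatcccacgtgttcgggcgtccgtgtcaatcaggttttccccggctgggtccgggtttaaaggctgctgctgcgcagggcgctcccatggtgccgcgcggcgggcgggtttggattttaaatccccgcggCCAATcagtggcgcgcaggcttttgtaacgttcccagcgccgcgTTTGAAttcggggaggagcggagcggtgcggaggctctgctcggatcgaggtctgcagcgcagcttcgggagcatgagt
DEPDC1: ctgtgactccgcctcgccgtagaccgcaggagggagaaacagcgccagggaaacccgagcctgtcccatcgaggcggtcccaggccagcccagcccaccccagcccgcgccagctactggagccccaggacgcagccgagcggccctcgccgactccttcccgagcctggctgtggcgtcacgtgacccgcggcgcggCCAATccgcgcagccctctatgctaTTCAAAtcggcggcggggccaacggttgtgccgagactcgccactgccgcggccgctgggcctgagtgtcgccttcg
DEPDC1B: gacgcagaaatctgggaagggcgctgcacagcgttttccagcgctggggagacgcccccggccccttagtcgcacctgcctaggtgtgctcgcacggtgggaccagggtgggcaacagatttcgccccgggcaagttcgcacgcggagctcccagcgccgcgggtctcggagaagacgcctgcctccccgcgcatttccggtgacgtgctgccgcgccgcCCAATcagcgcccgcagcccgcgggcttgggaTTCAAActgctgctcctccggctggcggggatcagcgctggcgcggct
BUB1: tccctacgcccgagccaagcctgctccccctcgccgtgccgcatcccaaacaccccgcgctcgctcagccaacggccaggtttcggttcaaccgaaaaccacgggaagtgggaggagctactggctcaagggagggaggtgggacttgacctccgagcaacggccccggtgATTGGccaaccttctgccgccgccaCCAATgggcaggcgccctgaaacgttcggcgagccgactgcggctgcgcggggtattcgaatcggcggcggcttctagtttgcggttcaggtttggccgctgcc

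In CCNB2 and PLK1 the CHR letters began 29 bases before the start, and in DEPDC1 27 bases before it. The CCAAT letters lay further out, 54 bases before the start in CCNB2 (the nearest of 4 matches), 73 in PLK1 and 52 in DEPDC1. The same close spacing stood in KIF11 (28 and 53 bases), ESPL1 (31 and 48) and KIF4A (34 and 58). In 16 of the 41 promoters a CHR match began within 50 bases before the start. DEPDC1B held its CHR match just after the start, at position 3, and BUB1 held 2 CCAAT matches, 79 and 54 bases before the start, and no CHR match.

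E2F-like letters (TTTCCCGC or TTTGGCGC, both strands) stood in 1 member promoter, that of CENPA (2.44% of 41 against 2.31% of all promoters). Promoters of genes tested for expression held them in 3.67%. In a list of 34 DNA replication genes, with 31 promoters at hand, the shares were turned round, with E2F-like letters in 14 (45.2%) and the CHR letters in 1 (3.23%). In 60 promoters of other mitosis genes (APC/C subunits, cohesin, condensin, inner kinetochore and regulators of the MuvB, B-MYB and FOXM1 group) the CHR letters stood in 19 (31.7%) and the CCAAT letters in 27 (45.0%). The TATA box letters TATAAA, searched on both strands, stood in 2 member promoters, ASPM and TOP2A (4.88% against 12.0% of all promoters). Among promoters of genes tested for expression the share was 5.46%, near that of the members. The lists share a subject and were not drawn at random, so these shares carry no test.

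**Figure D1:**
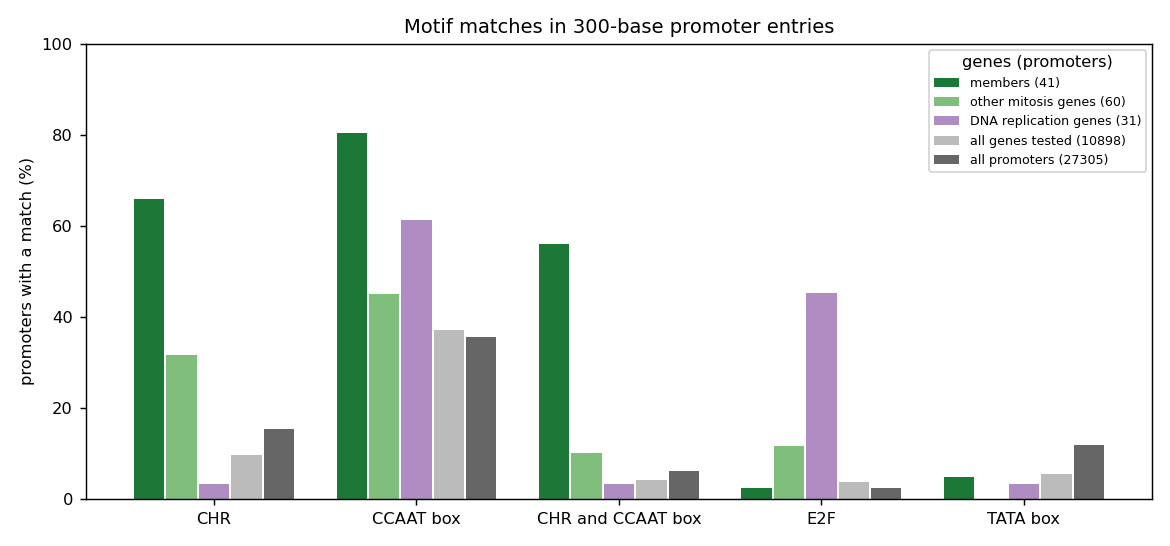
Percentage of 300-base promoter entries (vertical axis) with each motif (horizontal axis), for the members, 2 other gene lists, the genes tested for expression and all promoters, with the number of promoters in brackets. The members lead for CHR (65.9%) and CCAAT (80.5%), and the DNA replication genes for the E2F-like letters (45.2%).

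The deposited libraries held 4468822 to 28303668 gene counts each, the pure Jurkat libraries being the shallowest, so 3 counts correspond to 0.106 to 0.671 CPM. The labelled lines carried their own marker genes. KRT18, CAV1 and LHX1 were above 14 CPM in both HEK libraries and at most 0.224 CPM in both Jurkat libraries. The other HEK markers examined were less marked. KRT8 was at 12.9 and 13.7 CPM in HEK and 1.34 and 1.29 in Jurkat, and YAP1 at 17.1 and 13.2 against 0 and 0.484. PAX2 was at 1.48 and 2.44 CPM in HEK and 0 in both Jurkat libraries. All 10 T cell markers examined, from CD3D to PTPRC, were above 14 CPM in Jurkat and at most 1.69 CPM in HEK. The files' names fall into 2 sets, of 8 and 6 libraries, whose meaning the sources used here do not give. The set of 6 holds the pure HEK libraries and the set of 8 the pure Jurkat ones, so with these pure libraries a line difference and a set difference cannot be told apart. The 60% and 50% HEK conditions have 1 library in each set.

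Relative to all RNA, the members as a group were more abundant in Jurkat. Their summed level was 6702 and 6755 CPM in the HEK libraries and 10514 and 11498 CPM in the Jurkat libraries, with the mixtures between 5489 and 9467 CPM. The lines did not overlap, and 6 of the 10 mixed libraries lay above both HEK libraries. As means, 6729 ± 37.4 (SD, n = 2) stood against 11006 ± 696 (SD, n = 2), and the log2 ratio of HEK to Jurkat was −0.71. TOP2A, CENPF and MKI67 together made up 27.3 to 40.9% of the sum in the various libraries.

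Relative to the spike-ins the direction was the opposite. The members had 988 and 658 counts per 1000 spike-in counts in HEK, and 127 and 142 in Jurkat, a log2 ratio of 2.62. All RNA moved in the same way, with 147 and 97.3 gene counts per spike-in count in HEK and 12.1 and 12.3 in Jurkat, a ratio of 10.0 between the means. Gene counts per spike-in count also varied within conditions, at 46.6 and 123 in the libraries with 80% HEK cells. Scaled by spike-ins, the median gene was 3.61 higher in HEK on the log2 scale and the median member 2.82 higher. All 47 members were then called higher in HEK, as were 92.5% of all genes tested, and 36 of 47 lay under the median of all genes. The difference between the members' median and that of all genes was −0.79 with spike-in scaling and −0.80 with TMM scaling (trimmed mean of M-values, which centres most genes on no change). The text below gives levels relative to all RNA, and each direction given there as higher in Jurkat turns to higher in HEK with spike-in scaling.

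**Figure D2:**
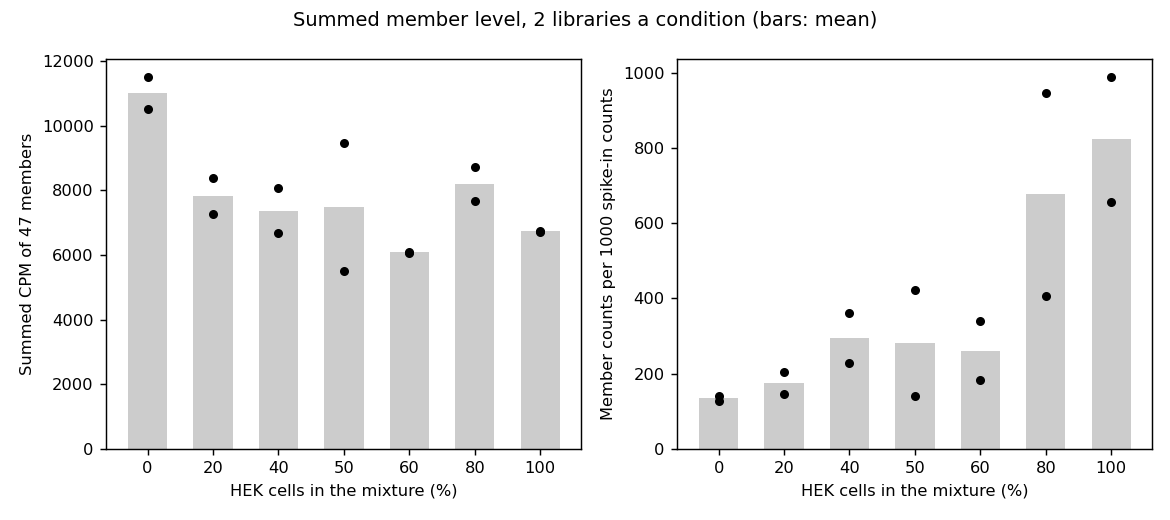
Summed level of the 47 members in each library against the percentage of HEK cells, as CPM (left) and as counts per 1000 spike-in counts (right); points are libraries and bars the mean of 2. Pure Jurkat is the highest condition on the left (10514 and 11498 CPM) and the lowest on the right (127 and 142).

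Gene by gene, pure HEK was compared with pure Jurkat by edgeR's quasi-likelihood test, 2 libraries against 2, over 15794 genes. Of the members, 5 were called higher in HEK at an adjusted p under 0.05, beside 24.2% of all genes, and 15 were called higher in Jurkat, beside 19.0% of all genes. The other 27 were not called, and the members' median log2 fold change was −0.73, beside 0.067 over all genes tested. In 35 members the pure libraries of the lines did not overlap, as in 74.8% of all genes. The members had been chosen with these levels in view, so nothing is read from those counts. The same holds for the counts by role below, which stand beside the same shares of all genes.

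**Figure D3:**
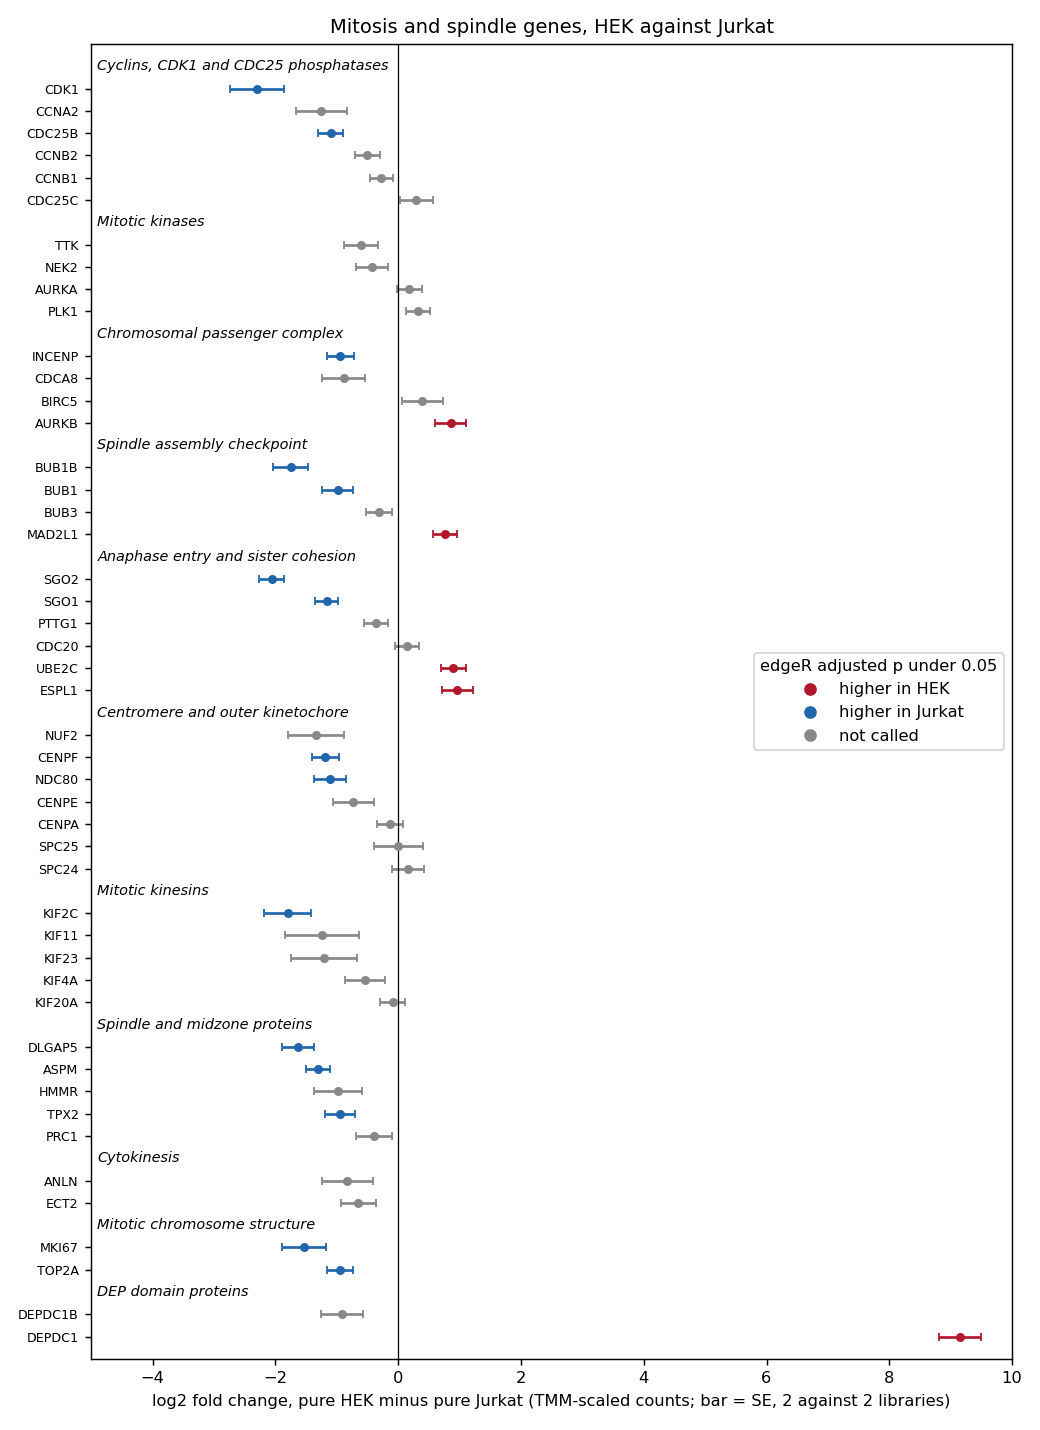
Log2 fold change of each member, pure HEK minus pure Jurkat, with its standard error (2 against 2 libraries), grouped by role and coloured by the edgeR call. Most points lie left of 0 (higher in Jurkat relative to all RNA, with spike-in scaling all lie on the other side), and DEPDC1 stands alone at 9.15.

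DEPDC1, which encodes a DEP domain protein found in proliferating cells, was the one member seen in a single line. It had 130.1 and 137 CPM in HEK (3305 counts together) and 1 count in each Jurkat library, 0.224 and 0.161 CPM. The ratio of the pooled levels was 717, with an exact 95% counting interval of 198 to 5920, which covers counting error only. The edgeR log2 fold change was 9.15 ± 0.35 (SE, edgeR adjusted p = 0.000640), a value that rests on 2 Jurkat counts and depends on the prior count of the fit. DEPDC1 was singled out for this pattern when the list was made from these same levels. Its interval, p-value and calls, here and below, therefore restate that choice and are no test of it.

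In the mixtures DEPDC1 was at 270.2 and 237 CPM with 80% HEK cells, 119 and 118 CPM with 60%, 165 and 80.6 CPM with 50%, 181 and 125 CPM with 40%, and 69.1 and 100.0 CPM with 20%. Every mixture lay far above both Jurkat libraries, and both 80% libraries lay above both pure HEK libraries. Its nearest relative, DEPDC1B, was seen in both lines, with 19.9 and 30.2 CPM in HEK and 32.0 and 48.7 CPM in Jurkat (log2 fold change −0.91 ± 0.34, edgeR adjusted p = 0.0803). DEPDC1 (GENCODE position chr1:68474152-68497221, minus strand) overlaps 2 antisense genes, at most 2.87 CPM in HEK and 0 in Jurkat. Within 500 kb, the protein-coding gene WLS, needed for Wnt secretion, was at 62.6 CPM in HEK and 0.546 in Jurkat, DIRAS3 was at 1.07 and 0, and RPE65 was at 0 in both. Its processed copies DEPDC1P1 and DEPDC1P2 held 0.646% and 0.468% of its counts over all libraries.

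Of the cyclins, CDK1 and CDC25 phosphatases, 2 of 6 were called, both higher in Jurkat, beside 19.0% of all genes. CDK1, the kinase that starts mitosis, was at 129 and 94.7 CPM in HEK and 296 and 643 CPM in Jurkat. The lines did not overlap, but the Jurkat libraries stood far apart from each other (log2 fold change −2.30 ± 0.44, edgeR adjusted p = 0.0123). In the mixtures CDK1 stayed between 111 and 198 CPM, near the HEK level even with 20% HEK cells. CDC25B, a phosphatase that activates CDK1, was at 25.8 and 23.7 CPM in HEK and 45.0 and 45.6 CPM in Jurkat, with a log2 fold change of −1.10 ± 0.20. CDC25C, its relative, had the highest fold change of the group (15.3 and 20.8 against 11.4 and 13.7 CPM) and was not called. The B-type cyclins were nearly level, CCNB1 at 90.3 and 90.2 CPM in HEK against 94.4 and 92.0 CPM in Jurkat and CCNB2 at a log2 fold change of −0.50 ± 0.20. CCNA2, cyclin A2, was at −1.26 ± 0.41 (edgeR adjusted p = 0.0600), with its Jurkat libraries at 186 and 80.6 CPM.

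None of the 4 mitotic kinases in the group of PLK1, AURKA, NEK2 and TTK was called. PLK1 was at 44 and 47.2 CPM in HEK and 31.8 and 30.5 CPM in Jurkat (log2 fold change 0.33 ± 0.20, edgeR adjusted p = 0.241). TTK, the kinase MPS1 of the checkpoint, was at 74.1 and 75.4 CPM in HEK and 75.9 and 118 CPM in Jurkat, the lowest fold change of the group at −0.60 ± 0.28. AURKA (0.18 ± 0.21) and NEK2 (−0.42 ± 0.26) lay between them.

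Among 4 chromosomal passenger genes, 1 was called higher in HEK, beside 24.2% of all genes, and 1 higher in Jurkat, beside 19.0%. The complex they encode corrects faulty attachments. Its kinase AURKB was at 131 and 107 CPM in HEK and 48.1 and 64.3 CPM in Jurkat, and was called higher in HEK (log2 fold change 0.85 ± 0.25, edgeR adjusted p = 0.0436). Its scaffold INCENP was at 211 and 171 CPM in HEK and 295 and 332 CPM in Jurkat, and was called higher in Jurkat (−0.94 ± 0.22, edgeR adjusted p = 0.0221). The targeting subunits BIRC5 (0.39 ± 0.34) and CDCA8 (−0.89 ± 0.35) were not called.

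Among 4 spindle assembly checkpoint genes, 1 was called higher in HEK, beside 24.2% of all genes, and 2 higher in Jurkat, beside 19.0%. MAD2L1, which encodes the inhibitor MAD2, was at 98.6 and 108 CPM in HEK against 53.7 and 50.5 CPM in Jurkat (log2 fold change 0.76 ± 0.20, edgeR adjusted p = 0.0305). BUB1B, which encodes BUBR1, was at 29.5 and 30.9 CPM in HEK against 108 and 66.7 CPM in Jurkat (−1.75 ± 0.29, edgeR adjusted p = 0.00836), and it overlaps a read-through gene on the same strand. BUB1 was at 87.7 and 80.5 against 117 and 168 CPM (−0.99 ± 0.26). BUB3, the most abundant of the 4 by CPM, overlapped between the lines, at 213 and 252 against 265 and 228 CPM.

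At anaphase entry and in sister cohesion, 2 of 6 genes were called higher in HEK, beside 24.2% of all genes. Another 2 were called higher in Jurkat, beside 19.0%. UBE2C, the ubiquitin-conjugating enzyme of the APC/C, was at 109.9 and 96.0 CPM in HEK and 44.9 and 49.4 CPM in Jurkat (log2 fold change 0.90 ± 0.21, edgeR adjusted p = 0.0217). ESPL1, which encodes the protease separase, was at 28.2 and 25.9 against 9.85 and 13.7 CPM (0.96 ± 0.26, edgeR adjusted p = 0.0325). Both were called higher in HEK, while the shugoshins, which shield centromeric cohesin, were called higher in Jurkat. SGO2 was at 97.2 and 89.2 CPM in HEK and 339.7 and 326 CPM in Jurkat (−2.06 ± 0.20, edgeR adjusted p = 0.00184), and SGO1 was at 63.2 and 64.3 against 123 and 122 CPM (−1.17 ± 0.19). CDC20 (0.14 ± 0.20), the activator of the APC/C, and PTTG1 (−0.36 ± 0.20), the inhibitor of separase, were not called.

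Of 7 centromere and outer kinetochore genes, 2 were called, both higher in Jurkat, beside 19.0% of all genes. CENPF, a large protein of the outer kinetochore, was at 594 and 754 CPM in HEK and 1282 and 1339.5 CPM in Jurkat (log2 fold change −1.19 ± 0.22, edgeR adjusted p = 0.0118). NDC80, the microtubule-binding subunit, followed at −1.11 ± 0.26. The rest of its complex was not called, with NUF2 at 126 and 91.2 against 335 and 137 CPM (−1.34 ± 0.46, the lowest of the group), SPC24 at 47 and 57.7 against 34.1 and 45.9 CPM (0.16 ± 0.26, the highest) and SPC25 at −0.0019 ± 0.40. CENPE (−0.73 ± 0.34), a kinetochore motor, and CENPA (−0.14 ± 0.21) were not called either.

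Of 5 kinesins 1 was called, higher in Jurkat, beside 19.0% of all genes. This was KIF2C, a microtubule depolymerase at the centromere, at 56.4 and 83.5 CPM in HEK and 272 and 146 CPM in Jurkat (log2 fold change −1.80 ± 0.39, edgeR adjusted p = 0.0174). KIF4A, a chromosome-bound kinesin and the most abundant by CPM, overlapped between the lines at 103 and 180.1 against 193 and 159 CPM, and its near-identical copy KIF4B held 2.23% of its counts. KIF11 (−1.24 ± 0.60), which pushes the spindle poles apart, and KIF23 (−1.21 ± 0.54) had the widest errors of the members. KIF20A, which acts at the midzone, was the most level at 43.5 and 37.8 against 37.1 and 36.7 CPM.

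Of the spindle and midzone proteins 3 of 5 were called, all higher in Jurkat, beside 19.0% of all genes. ASPM, which holds the spindle poles together, was at 376 and 342 CPM in HEK and 728 and 786 CPM in Jurkat (log2 fold change −1.30 ± 0.20, edgeR adjusted p = 0.00657). DLGAP5, a microtubule-binding protein, was at 54.6 and 56.6 against 176 and 119.8 CPM (−1.63 ± 0.26), and TPX2, the activator of Aurora A, at −0.95 ± 0.24. PRC1, which bundles midzone microtubules, overlapped at 209 and 247 against 196 and 314 CPM, and HMMR, a spindle pole protein, was at −0.97 ± 0.39.

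The cytokinesis genes ECT2 (62.6 and 70.3 against 69.9 and 108 CPM) and ANLN (49.1 and 52.3 against 46.8 and 107 CPM) overlapped between the lines and were not called. Both genes of chromosome structure were called higher in Jurkat, beside 19.0% of all genes. TOP2A, the topoisomerase that untangles sister chromatids, was at 1159 and 1125 CPM in HEK and 2084 and 1678 CPM in Jurkat (log2 fold change −0.95 ± 0.21, edgeR adjusted p = 0.0198). MKI67, the proliferation marker Ki-67 that coats mitotic chromosomes, was at 605 and 427 against 937 and 1617 CPM (−1.54 ± 0.35, edgeR adjusted p = 0.0218). On the per-length scale (the authors' TPM, which divides by transcript length) the highest members in HEK were TOP2A at 838 and PRC1 at 359, and in Jurkat CDK1 at 1598 and TOP2A at 1350.0, each a mean of 2 libraries. TPM divides by length although the cDNA was primed at the poly(A) tail, and how evenly reads covered these transcripts was not tested.

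Calls with 2 libraries a line rested on few values. With the file-name set added as a term over all 14 libraries, DEPDC1 remained called higher in HEK (15.5% of all genes were) and CDK1, CDC25B and SGO2 higher in Jurkat (9.49% of all genes). Of the 20 called members 19 kept their sign in that fit, and CENPF was at a log2 fold change of 0.013 (edgeR adjusted p = 0.997). Without the first HEK library 1 member was called higher in HEK (11.3% of all genes were) and 3 higher in Jurkat (8.50%). Without the second the counts were 1 (11.0% of all genes) and 5 (8.46%). Over the 10 alternatives with scaling to all RNA, the log2 fold change ran from 8.94 to 9.85 for DEPDC1 and from −2.10 to −1.20 for SGO2. Those alternatives reuse the same pure libraries, so they are no independent evidence.

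The set of 8 also holds a 60% HEK library, with 91.2% HEK RNA by the fit described below. Set against the mean of the pure Jurkat libraries of the same set, it gave log2 differences of 7.42 for DEPDC1, −1.38 for CDK1, −1.05 for SGO2 and −0.24 for CDC25B. These values were added after the others were seen, rest on 1 library and use the same pure Jurkat libraries as the calls, so they carry no test and are no independent evidence of direction.

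Beyond the members, 67 of 68 other mitosis genes passed the filter on low counts, and 2 were called higher in HEK (2.99% of them, beside 24.2% of all genes) and 13 higher in Jurkat (19.4%, beside 19.0%). Their median log2 fold change was −0.16. In cohesin, which holds sister chromatids together, 4 of 9 were called, all 4 higher in Jurkat (44.4%, beside 19.0% of all genes), with RAD21 lowest at −2.30 ± 0.25 and SMC1A highest at 0.41 ± 0.27. The condensin core SMC2 (−2.18 ± 0.25) and the kinetochore scaffold KNL1 (−2.21 ± 0.24) were also called higher in Jurkat, and the APC/C subunit ANAPC11 (1.58 ± 0.20) and the MuvB subunit LIN9 (1.21 ± 0.22) higher in HEK. The other genes at the ends of these lists were LIN54 (−0.89 ± 0.25), called higher in Jurkat, and ANAPC4 (−1.53 ± 0.75), NCAPH2 (−0.031 ± 0.21) and ZWILCH (0.74 ± 0.54), which were not called. The 34 DNA replication genes had 3 calls in each direction (8.82% each, beside 24.2% and 19.0% of all genes) and a median of 0.024, from TYMS (−1.51 ± 0.23), called higher in Jurkat, to POLA1 (1.1 ± 0.37), not called. The 27 members with the CHR letters in their promoter spanned log2 fold changes of −2.30 to 9.15 (DEPDC1), the 14 without −2.06 to 0.85, and the 6 without an entry −0.95 to 0.90, so the ranges overlapped. Their medians were −0.91 with the letters, −0.58 without and −0.065 without an entry, and the difference was not tested.

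The mixtures asked whether the members' levels followed the cells mixed. HEK cells held more RNA, so the HEK share of RNA in each library was fitted from 3523 other genes that differed at least 4-fold between the lines. It was 96.4 and 96.3% with 80% HEK cells, 91.5 and 91.2% with 60%, 86.6 and 88.8% with 50%, 81.1 and 82.5% with 40%, and 60.1 and 61.4% with 20%. The cells mixed and the spike-in ratio of 10.0 would give higher shares, 87.0% with 40% HEK cells and 71.5% with 20%. These estimates disagree, and why was not tested. The ratio of 10.0 is between means, with the HEK libraries at 147 and 97.3 gene counts per spike-in count. The paper on these data gives a smaller ratio, also from the spike-ins and the pure libraries. The additive expectation for a gene is the HEK level times the fitted share plus the Jurkat level times the rest. The members' median log2 ratio of observed to expected CPM was −0.034, beside −0.025 over all genes tested, and the medians in single libraries ranged from −0.12 to 0.014.

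Single members spread more. In 19 of 47 members (40.4%) at least 1 of the 10 mixed libraries lay more than 2-fold from the expectation, beside 22.1% of all genes tested. Without the 4 libraries with 40% and 50% HEK cells, 10 members did, beside 13.7% of all genes. BUB1 lay lowest, with a median log2 ratio of −0.96. It was at 36.1 and 44.4 CPM with 80% HEK cells, 41.9 and 43.9 with 60%, 57.2 and 46.1 with 50%, and 53.2 and 43.8 with 40%, and at 132 and 109.7 CPM with 20%. Those first 8 libraries, of both file-name sets, lay below all 4 pure libraries, while the 20% libraries lay above both HEK libraries, the first also above the first Jurkat library and the second below both.

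TTK lay below all 4 pure libraries in 9 of 10 mixtures, between 38.1 and 70.5 CPM, and 78.9 CPM in the first library with 40% HEK cells. BUB1 and TTK were the members with at least 8 such libraries, a pattern seen in 1.20% of all genes tested. INCENP did so in 7, with 95.3 to 135 CPM in the 6 libraries with 50 to 80% HEK cells and a median log2 ratio of −0.59, and KIF4A also in 7 (−0.69). CCNB1, level in the pure lines, lay above all 4 pure libraries in 9 of 10 mixtures, up to 237 CPM in the first 50% library, a pattern of at least 8 libraries seen in 0.848% of all genes. CDK1 lay more than 2-fold under its expectation in both libraries with 20% HEK cells (log2 ratios −1.14 and −1.05), where the expectation leans most on the 2 discordant Jurkat libraries.

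PRC1 stood out on the high side. It was at 493 and 654 CPM with 80% HEK cells, 693 and 210.0 with 50%, and 423 and 166 with 40%, while the 60% libraries (201 and 181) and the 20% libraries (289 and 217) were near the pure lines. The libraries at 50% and at 40% thus differed by more than 2-fold from each other. KIF23, the kinesin that works with PRC1 at the midzone, was at 110.0 and 119 CPM with 80% HEK cells and 101 and 35.4 with 50%, against 40.9 and 60.1 in HEK and 50.8 and 148 in Jurkat.

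**Figure D4:**
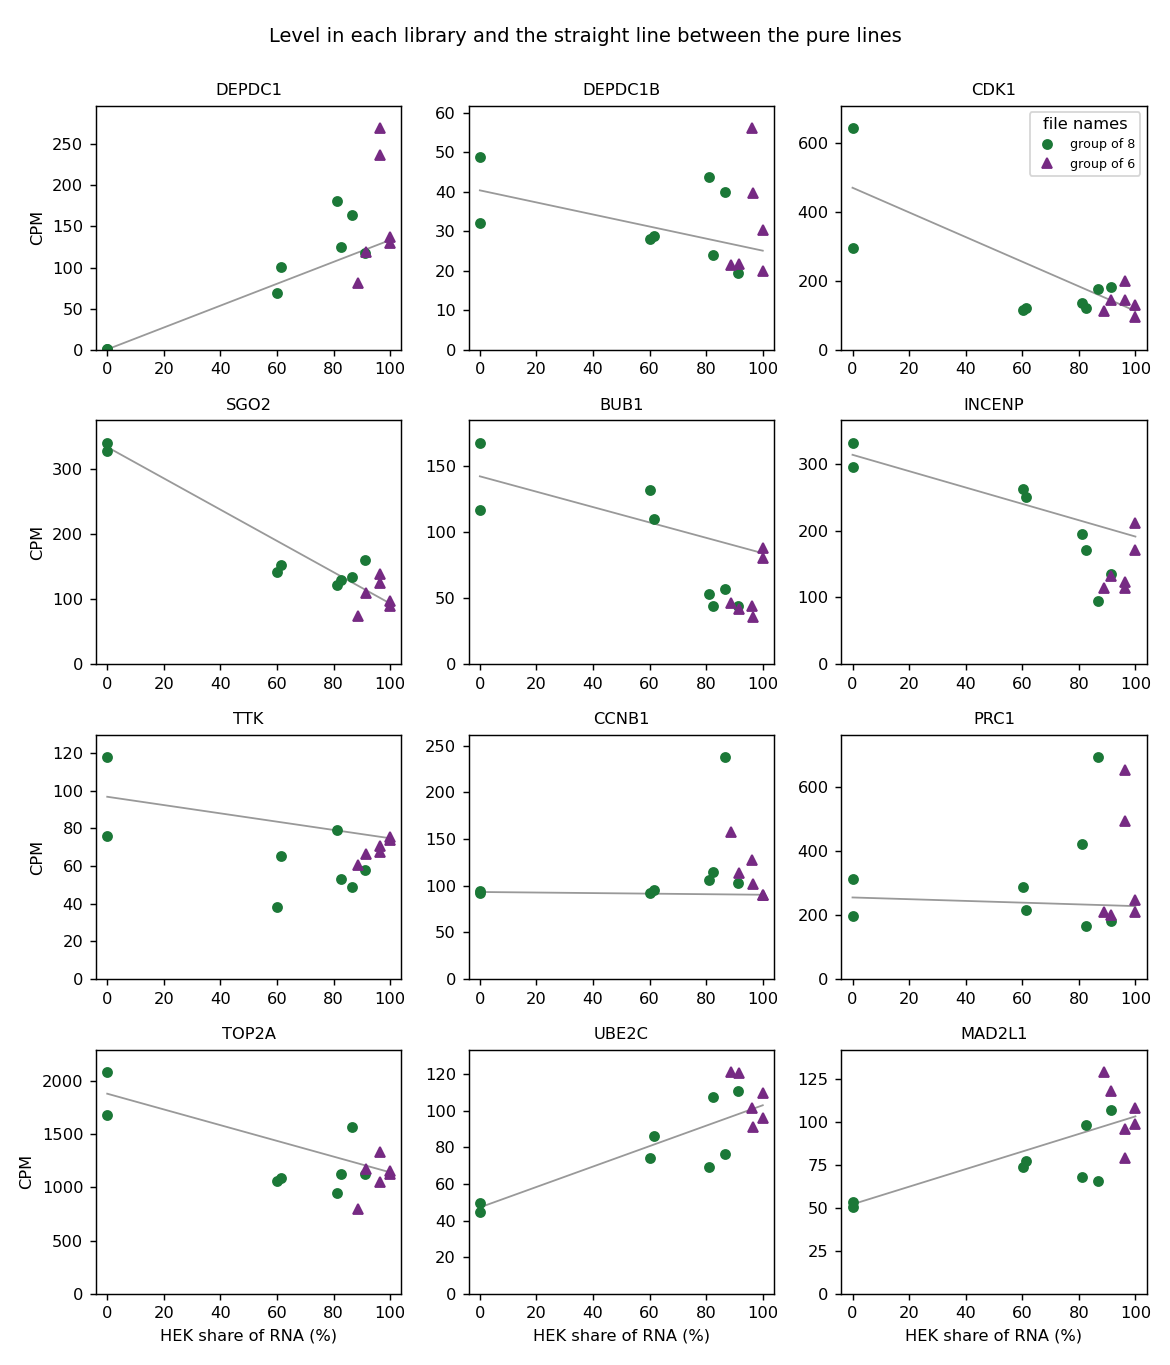
CPM of 12 members (vertical axes, from 0) in each of 14 libraries against the fitted HEK share of RNA (horizontal axes, %), with the straight line between the means of the pure lines; circles and triangles mark the file-name sets of 8 and 6. DEPDC1 is lowest in Jurkat (mean 0.192 CPM) and highest with 80% HEK cells, above pure HEK. BUB1 dips below its line in the 8 libraries with 40 to 80% HEK cells, and PRC1 scatters between 166 and 693 CPM.

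The 2 libraries with 50% HEK cells differed most. Of the members, 16 were more than 2-fold apart, beside 14.7% of all genes tested, with 12 higher in the first library and 4 in the second. CENPF was at 1615 and 441 CPM, PRC1 at 693 and 210.0, BUB1B at 125 and 41.1, ASPM at 485 and 181 and MKI67 at 643 and 265. NEK2, a centrosomal kinase, CENPA, the centromeric histone, PLK1 and CDC25B were higher in the second library, PLK1 at 30.8 and 63.6 CPM and CDC25B at 24.3 and 49.1. The members high in the first library included the longest transcripts, and those high in the second several short or GC-rich ones. Not all long transcripts were higher in the first library. The log2 ratio of the first to the second was −0.28 for BUB3 (7703 bases), −0.65 for ESPL1 (6665 bases) and −0.97 for MAD2L1 (5227 bases).

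Across the 47 members, the log2 ratio of the first to the second library went with the log2 length of the longest annotated transcript (Pearson r = 0.46, Spearman rho = 0.43) and against its GC content (r = −0.53, rho = −0.48). Over 15691 genes tested the same values were 0.13 and 0.24 for length and −0.33 and −0.39 for GC content. All genes here share the same 2 libraries and are not independent, so these are descriptions. At 40% HEK cells, where 6 members and 10.3% of all genes were more than 2-fold apart and both libraries are in the set of 8, r was 0.38 with length and −0.28 with GC content. At 80% it was 0.24 and −0.39, with both libraries in the set of 6, and at 20% it was 0.21 and −0.11. In pure HEK it was 0.02 and −0.07, in pure Jurkat −0.07 and −0.02, and at 60%, whose libraries come from both sets, −0.09 and 0.12. More than 2-fold apart were 0 members in pure HEK (4.75% of all genes), 6 in pure Jurkat (12.4% of all genes) and 0 at 60% (3.10% of all genes).

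**Figure D5:**
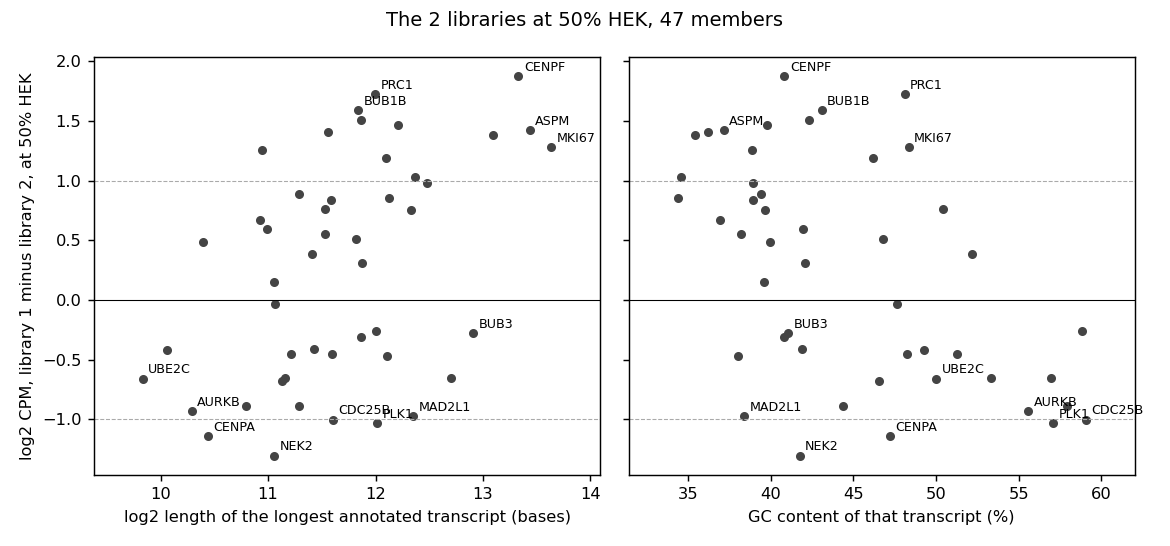
Log2 ratio of the first to the second library with 50% HEK cells (vertical axis) for 47 members against the log2 length of the longest annotated transcript (left) and its GC content in percent (right); dashed lines mark 2-fold. CENPF, PRC1 and ASPM lie at the top and NEK2, CENPA and PLK1 at the bottom.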

How the data were processed

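Both cell lines, pure or mixed, were lysed as pools of cells, mRNA was caught on oligo(dT) beads, and ERCC spike-ins were added before barcoded cDNA was made. Per the submitters' processing notes, STAR 2.6.1b, RSEM 1.3.1 and GRCh38 were used. The libraries were primed with barcoded oligo(dT) and were strand-specific. The annotation release and the strand option of RSEM are not given in the sources used here. The authors deposited RSEM expected counts and TPM per gene for each library. Gene symbols and positions came from GENCODE 44 (57754 of 58440 genes matched, the rest holding at most 0.327% of a library's counts).

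Expected counts were rounded to whole numbers, the 92 spike-ins were left out, and edgeR 4.0.16 (R 4.3.3) was run with filterByExpr, TMM and the quasi-likelihood test on the 4 pure libraries, with Benjamini-Hochberg adjustment over all genes. The fold change's standard error is its size divided by the square root of F. TPM as deposited by the authors entered the per-length levels and 1 alternative. Log2 ratios of CPM used a pseudocount of 0.5 CPM. The HEK share of RNA minimised the summed absolute log2 deviation over genes that were no members. The edgeR and share scripts were tested on simulated data. DESeq2 1.42.0 served as an alternative.

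The members and all gene lists were chosen with earlier results of these data known. Values are given for the member with the highest mean CPM, the highest and the lowest fold change in each role group, for members at or under 3 counts in a line, and for DEPDC1. From the other lists the genes with extreme fold changes were named. CDC25B, SGO1, BUB1, CCNB1, NDC80, TPX2, KIF23 and the members named for the mixtures, the WLS neighbourhood and the 50% libraries fall outside that rule and were chosen after their values were seen. Of the members, 27 overlap another annotated gene, 22 of them one on the opposite strand, and whether the counting used strand is not stated, so reads of such pairs may be shared. The series-wide table was not used.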

Additional observations from a re-analysis of the deposited data

How the results depend on the processing

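Of the alternatives to the call counts (5 members higher in HEK and 15 higher in Jurkat), spike-in scaling gave 47 and 0, turned the median log2 fold change of the members from −0.73 to 2.82 and turned the log2 ratio of their summed level from −0.71 to 2.62. The 15 members called higher in Jurkat turned to higher in HEK with spike-in scaling, at log2 fold changes of 1.3 (CDK1), 2.46 (CDC25B), 2.64 (INCENP), 2.58 (BUB1), 1.79 (BUB1B), 2.38 (SGO1), 1.5 (SGO2), 2.33 (CENPF), 2.49 (NDC80), 1.69 (KIF2C), 2.56 (TPX2), 1.91 (DLGAP5), 2.26 (ASPM), 2.61 (TOP2A) and 2.07 (MKI67). With the file-name set as a term CENPF turned to 0.013, the counts were 1 and 3 and the median was −0.36, and with library totals in place of TMM the median was −0.50. Leaving out 1 pure library gave 1 to 4 members higher in HEK, 3 to 20 higher in Jurkat and medians from −0.74 to −0.54. The 20 came from the fit without the first Jurkat library, and the 4 from the fit without the second. For these fits no share of all genes called is given here, and each left 1 Jurkat library. Nothing about the members is therefore read from those counts. DESeq2, DESeq2's size factors, no filter on low counts, and all 14 libraries without the file-name term kept the counts of 5 and 15 within 1.5 times. The summed level as TPM gave −0.88. The members' median log2 ratio of observed to additive level, −0.034, was −0.097 with TPM and 0.049 in the mixed libraries of the set of 6, and the members beyond 2-fold went from 19 to 10 without the libraries at 40% and 50% HEK cells, a choice made after seeing the data. In the 100 bases before the start alone, the share of member promoters was 39.0% for CHR, beside 4.64% of all promoters, and 68.3% for CCAAT, beside 18.7%. It was 0% for the E2F-like letters, beside 0.820% of all promoters, and 0% for the TATA letters, beside 5.34%. Promoters of genes tested for expression held the E2F-like letters there in 1.19% and the TATA letters in 2.28%. No paired analysis was possible because the labels give every library a number of its own, shared with no other condition (first and second here follow accession order). With 2 libraries a line and 4468822 counts in the shallowest pure Jurkat library, a member that was not called may still differ.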
